A study of Mus musculus with 6 samples.

Results

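Immature granule neuron genes of the ventral dentate gyrus were examined as a set of 10 symbols, Dcx, Sox11, Sox4, Neurod1, Igfbpl1, Eomes, Draxin, Stmn1, Tubb2b and Dpysl3, among the 24062 symbols counted per library. They were chosen by name, as genes known from neuroblasts and young granule neurons of adult neurogenesis, and all 10 were listed in every library. The choice was made with earlier results of these data known. RNA came from male mice of the strain labelled C57black 6. 3 libraries (Ctrl) came from animals that were not stressed and 3 (CRS) from animals given chronic restraint, a repeated confinement used as a stressor. No transgene or drug is given for either group, and neither the age of the mice nor the length of the restraint is given in the labels. The replicates are called biological in the labels, with no count of animals in each, and a p-value here reflects variation among these 6 libraries.

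The dentate gyrus is among the few brain regions that make neurons in adult life. Radial stem cells of the subgranular zone give rise to dividing progenitors that carry the T-box factor Eomes, then to neuroblasts and young neurons that carry doublecortin, and finally to mature granule neurons marked by calbindin. Commitment is driven by the basic helix-loop-helix factor NeuroD1 and the SoxC factors Sox4 and Sox11, while growing processes need proteins that remodel microtubules. Doublecortin is the usual marker of newborn neurons, and its level is often used as a proxy for neurogenesis in studies of stress.

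The stretches of DNA just before 4 of these genes are shown because they differ widely in base composition among genes of the same lineage. They come from RefSeq windows on GRCm38.p6, matched by symbol for 6 of the 10 members. Those of Dcx, Neurod1 and Draxin end where the GENCODE gene begins, and that of Sox11 ends 144 bases before it. Each reads 5′ to 3′ on the gene's strand, with the gene's start to the right. The first lies on chromosome X from 143933312 to 143933469, the second on chromosome 12 from 27342719 to 27342968, the third on chromosome 2 from 79456752 to 79456886 and the fourth on chromosome 4 from 148130699 to 148130948, all on the minus strand. Capitals mark the Sox-type motif ACAAAG or its reverse complement CTTTGT.
Dcx: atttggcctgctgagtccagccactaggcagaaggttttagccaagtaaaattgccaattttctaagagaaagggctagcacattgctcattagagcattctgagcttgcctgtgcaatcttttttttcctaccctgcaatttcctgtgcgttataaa
Sox11: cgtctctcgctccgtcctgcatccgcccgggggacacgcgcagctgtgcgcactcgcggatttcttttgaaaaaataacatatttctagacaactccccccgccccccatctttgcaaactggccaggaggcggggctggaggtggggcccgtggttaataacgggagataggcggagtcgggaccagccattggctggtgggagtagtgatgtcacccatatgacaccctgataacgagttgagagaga
Neurod1: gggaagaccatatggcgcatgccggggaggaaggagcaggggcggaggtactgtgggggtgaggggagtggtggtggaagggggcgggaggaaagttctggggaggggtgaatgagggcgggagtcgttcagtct
Draxin: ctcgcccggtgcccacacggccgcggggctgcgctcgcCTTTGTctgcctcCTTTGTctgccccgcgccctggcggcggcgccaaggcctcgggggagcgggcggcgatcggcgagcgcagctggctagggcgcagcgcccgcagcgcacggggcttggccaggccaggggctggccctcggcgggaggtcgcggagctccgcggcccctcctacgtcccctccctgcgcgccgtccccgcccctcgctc
G and C made up 42.4% of the Dcx stretch, 58.0% of that of Sox11, 65.2% of that of Neurod1 and 79.6% of that of Draxin. The Sox-type motif was found 2 times before Draxin and 0 times before the other 3. Over all 32851 windows, 16.5% held it in a stretch of 250 bases, 10.8% in 158 bases and 9.51% in 135 bases. The E-box CAGATG, or CATCTG on the other strand, a form that NeuroD factors bind, was found in none of the 4 stretches, against 14.4%, 9.57% and 8.05% of windows at those lengths. A match or its absence describes these letters only.

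Gene counts per library ran from 8305753 to 10107953, so that 3 counts, the limit that a count of 0 allows, corresponded to 0.297 to 0.361 CPM (counts scaled to a common library total). These limits cover counting error only. The label of the tissue was checked against granule neuron markers. The transcription factor gene Prox1 was at 92.5 to 133 CPM in controls and the complement-like gene C1ql2 at 62.6 to 74.6 CPM. Stress replicate 1 stood apart from the other 5 libraries, with Prox1 at 48.5 CPM and C1ql2 at 21.0 CPM. It held 7454 CPM summed over 11 choroid plexus genes against 152 to 202 CPM elsewhere, and 1075 CPM over 10 striatal genes against 276 to 292 CPM. None of these marker genes was at 0 in all libraries. Estimates for the tested members, and for the other genes and lists, are therefore also given without that library. In bulk tissue, fewer cells of a type and less RNA per cell cannot be told apart.

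Chronic stress against control gave no member past the threshold. By edgeR's quasi-likelihood test with Benjamini-Hochberg adjustment over 14058 genes, 0 of the 9 members tested had an adjusted p under 0.05, where 0.0285% of all tested genes did, each of them lower. DESeq2 and limma-voom also called 0 members. At an unadjusted p under 0.05, Dcx and Stmn1 were on the lower side and no member was on the higher side. At that p, 4.85% of all tested genes were on the lower side and 3.86% on the higher side. Eomes did not pass the filter on low counts. The median log2 fold change of the 9 members was -0.17, against 0.00 over all tested genes. 8 of the 9 were negative, where 49.0% of all tested genes were. Without stress replicate 1 the median was 0.02, 2 of the 9 were negative and again 0 were called, against 0.289% of all genes tested.

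**Figure D1:**
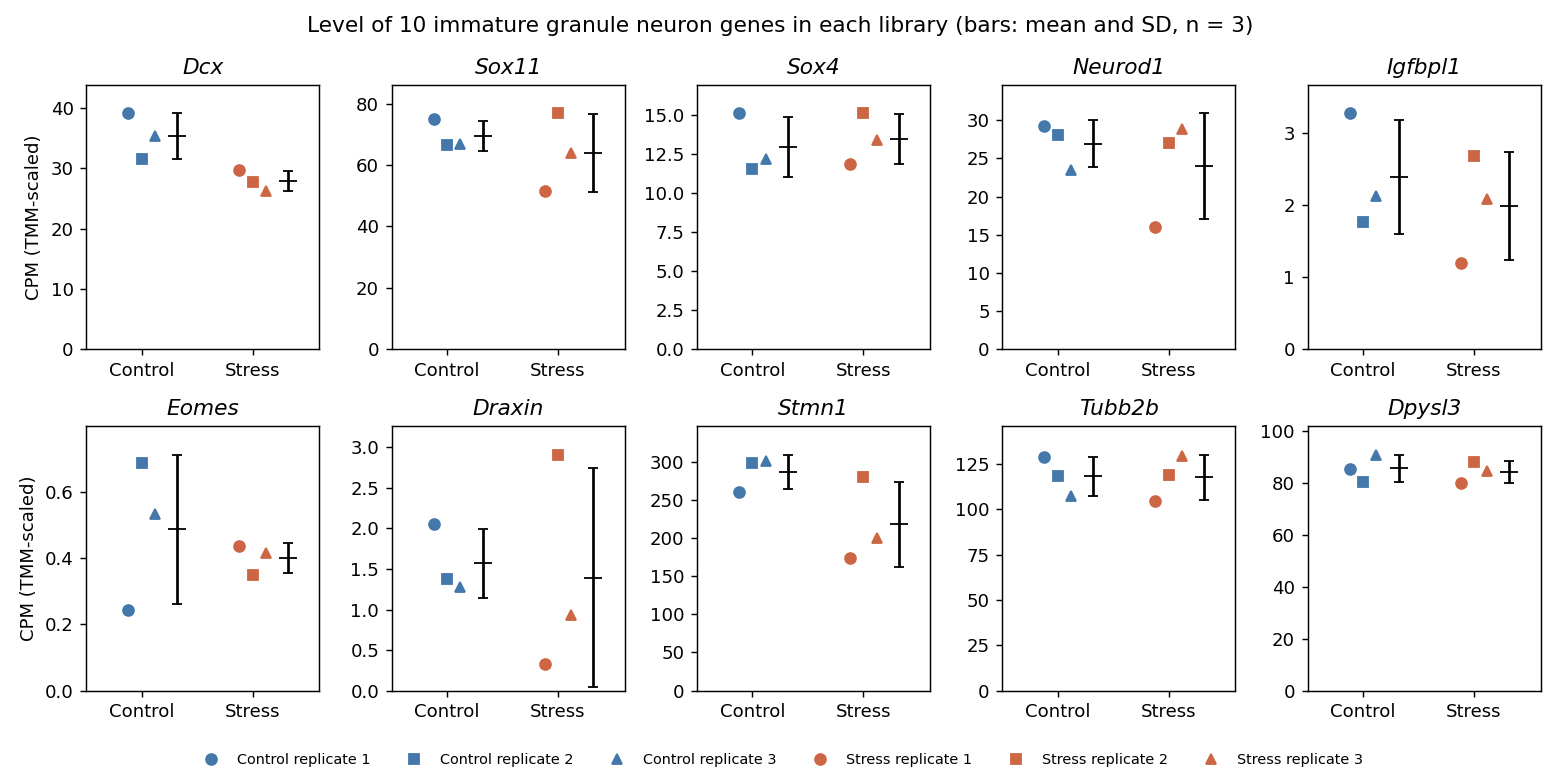
TMM-scaled CPM of the 10 genes in each of 6 libraries, by group, with the mean and SD over 3 libraries beside the points. For Dcx the stress points, from 26.3 to 29.7 CPM, lie under the control points, from 31.6 to 39.1 CPM. For the other 9 genes the groups overlap.

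Dcx encodes doublecortin, a protein that stabilises microtubules in migrating and growing young neurons. It lies on chromosome X from 143855842 to 143933311. Its level was 39.1, 31.6 and 35.4 CPM in control replicates 1, 2 and 3 and 29.7, 27.7 and 26.3 CPM in stress replicates 1, 2 and 3. All 3 stress libraries lay below all 3 controls, and Dcx was the only member whose groups did not overlap. Among all tested genes, 7.84% lay below the controls in this way. The means were 35.4 ± 3.77 and 27.9 ± 1.71 CPM (SD, n = 3). Stress stood at 0.790-fold of control, which is -0.34 as a log2 fold change (SE 0.11, 95% interval -0.58 to -0.10). The edgeR quasi-likelihood test gave an unadjusted p of 0.0111 and an adjusted p of 0.442, so the difference did not pass.

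The Dcx estimate kept its sign when any 1 library was left out, with log2 fold changes from -0.41 to -0.26. Without stress replicate 1 it was -0.39 (SE 0.11), with an adjusted p of 0.180 by edgeR's quasi-likelihood test. Over the alternatives tried, its adjusted p ran from 0.180 to 0.835. Stress replicate 1, the lowest library for 7 of the 10 members, was the highest of the 3 stress libraries for Dcx.

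Genes of astrocytes, the glial cells that surround these neurons, had mostly negative estimates as well. They gave 0 calls among 14 tested, with a median of -0.19. Of the 14 estimates 13 were negative, where 49.0% of all tested genes were. Without stress replicate 1 all 14 were negative, with a median of -0.14. Their summed level was 9341, 9277 and 8257 CPM in controls and 7252, 8213 and 8251 CPM in stress, so every stress library lay below the controls, the last 2 of them by little. For 5 of the 14 genes every stress library lay below every control, as it did for 7.84% of all tested genes. Among these were the connexin gene Gjb6 at -0.43 (SE 0.10), the tissue factor gene F3 at -0.31 (SE 0.08) and the growth factor receptor gene Fgfr3 at -0.21 (SE 0.07), with adjusted p-values of 0.251, 0.337 and 0.475 by edgeR's quasi-likelihood test. They were at -0.35, -0.31 and -0.22 without stress replicate 1. The part of astrocytes in the Dcx difference was not tested.

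Stmn1 encodes stathmin, which binds free tubulin and promotes microtubule disassembly. It lies on chromosome 4 from 134468320 to 134473843. Its level was 260.0, 298 and 300.5 CPM in controls and 174, 280 and 199.9 CPM in stress. Stress replicate 2 lay within the controls, while replicates 1 and 3 lay below them. The means were 286 ± 22.8 and 218 ± 55.2 CPM, with a log2 fold change of -0.40 (SE 0.16, 95% interval -0.75 to -0.04) and an adjusted p of 0.540 by edgeR's quasi-likelihood test. Leaving out stress replicate 1 gave -0.26 (SE 0.12), and leaving out stress replicate 2 gave -0.62. In GENCODE transcripts, 12.8% of the 100-base windows of Stmn1 also occur in the processed pseudogene Gm11223, so part of its reads may not be unique to it.

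**Figure D2:**
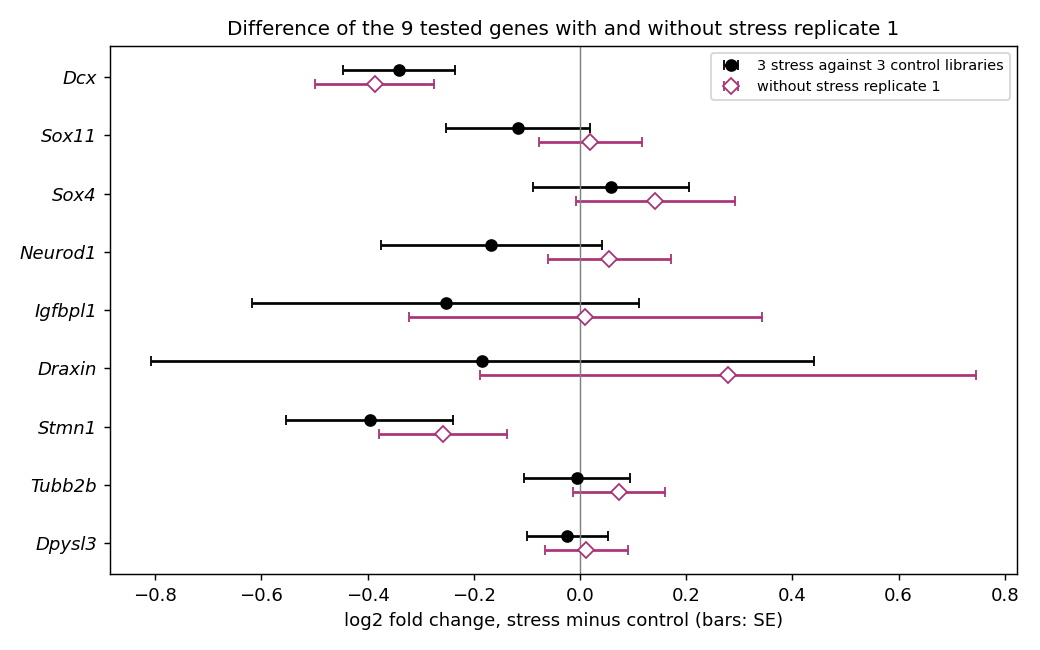
Log2 fold change of stress against control for the 9 members tested, with bars of 1 SE, for all 6 libraries (filled) and without stress replicate 1 (open). Dcx stays at -0.34 and -0.39, while Sox11, Neurod1, Igfbpl1, Draxin, Tubb2b and Dpysl3 move from below 0 to above it.

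The SoxC factors are transcription factors with an HMG box that switch on neuronal genes in newborn neurons. Both members are genes without introns. Sox11, on chromosome 12 from 27334264 to 27342574, was at 74.9, 66.5 and 66.8 CPM in controls and 51.4, 76.8 and 63.9 CPM in stress. The stress libraries lay on both sides of the controls, with the lowest value in replicate 1 and the highest in replicate 2. The log2 fold change was -0.12 (SE 0.14, 95% interval -0.43 to 0.19), and 0.02 (SE 0.10) without stress replicate 1. Sox4, on chromosome 13 from 28948919 to 28953713, was at 15.1, 11.6 and 12.2 CPM in controls and 11.9, 15.1 and 13.4 CPM in stress. Sox4 was the only member with a positive estimate over 6 libraries, at 0.06 (SE 0.15, 95% interval -0.28 to 0.39), and was at 0.14 without stress replicate 1. The long noncoding gene Gm26735 overlaps it on the opposite strand and holds 53.6% of its 100-base windows, and no label states whether the counting used strand.

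NeuroD1 is a proneural factor needed for the survival and maturation of newborn granule neurons. Its gene lies on chromosome 2 from 79452521 to 79456751, and 6.05% of its 100-base windows also occur in transcripts of Cerkl or Gm26755. Neurod1 was at 29.3, 28.0 and 23.5 CPM in controls and 16.1, 27.0 and 28.9 CPM in stress. Stress replicates 2 and 3 lay within the controls, and replicate 1 lay below every other library. The log2 fold change was -0.17 (SE 0.21, 95% interval -0.64 to 0.31), and 0.06 (SE 0.12) without stress replicate 1.

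Eomes, Igfbpl1 and Draxin were the 3 members with the fewest counts. Eomes, the T-box factor of dividing progenitors, lies on chromosome 9 from 118478212 to 118486132. It had 2, 7 and 5 counts in controls and 4, 3 and 4 in stress, close to the 3 counts that a count of 0 allows. A difference was not detectable at this depth. Tested without the filter, Eomes was at -0.30 on the log2 scale, and edgeR's quasi-likelihood test gave an adjusted p of 0.931.

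Igfbpl1, a neuroblast gene related to insulin-like growth factor binding proteins, lies on chromosome 4 from 45809468 to 45826923. It had 27, 18 and 20 counts in controls and 11, 23 and 20 in stress, with a log2 fold change of -0.25 (SE 0.36, 95% interval -1.08 to 0.58). Draxin, a secreted axon guidance protein, is encoded on chromosome 4 from 148098437 to 148130698. It had 17, 14 and 12 counts in controls and 3, 25 and 9 in stress, so stress replicate 2 was the highest library and replicate 1 the lowest. Its log2 fold change of -0.18 (SE 0.62, 95% interval -1.61 to 1.24) was 0.28 without stress replicate 1 and -1.27 without stress replicate 2. The limma-voom fit, the source of that SE and of the width of that interval, itself put Draxin at -0.62. For Igfbpl1 the estimate without stress replicate 1 was 0.01.

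The 2 remaining members act on the cytoskeleton of growing neurites and had the estimates closest to 0. Tubb2b encodes a beta tubulin of developing neurons and lies on chromosome 13 from 34126748 to 34130466. It was at 129, 118 and 107 CPM in controls and 105, 119 and 129 CPM in stress, so the groups covered nearly the same range. Its log2 fold change was -0.01 (SE 0.10), with a 95% interval from -0.23 to 0.22, and was 0.07 without stress replicate 1. The related gene Tubb2a and its pseudogene hold 26.0% of its 100-base windows, and reads from these stretches cannot be assigned with certainty. Dpysl3 encodes a collapsin response mediator protein (CRMP), which links guidance signals to microtubules. It was at 85.5, 80.3 and 90.9 CPM in controls and 79.9, 88.0 and 84.5 CPM in stress, with a log2 fold change of -0.02 (SE 0.08, 95% interval -0.20 to 0.15) and of 0.01 without stress replicate 1.

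Levels between members were compared per kilobase of merged exons, in controls. Stmn1 was highest at 149 ± 11.9 CPM per kilobase (SD, n = 3), followed by Tubb2b at 51.5 ± 4.69 and Dpysl3 at 12.9 ± 0.800. Neurod1 at 9.88 ± 1.11 and Sox11 at 8.35 ± 0.576 overlapped across control libraries, as did Dcx at 2.80 ± 0.298 and Sox4 at 2.71 ± 0.395. Below them were Igfbpl1 at 0.734 ± 0.241, Draxin at 0.302 ± 0.0819 and Eomes at 0.117 ± 0.0543 CPM per kilobase. Every annotated exon counts towards the length, 12647 bases for Dcx, so a gene with long exons that these cells use little is placed too low. Stmn1, Tubb2b and Dpysl3, which serve growing neurites, are also transcribed in mature neurons and in glia.

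Spread between libraries differed by member and group. In controls the coefficient of variation of CPM ran from 6.18% for Dpysl3 to 46.3% for Eomes, and was 10.7% for Dcx. In stress it ran from 4.84% for Dpysl3 to 97.1% for Draxin, and was 6.13% for Dcx. It was larger in stress than in controls for 6 members, Sox11, Neurod1, Igfbpl1, Draxin, Stmn1 and Tubb2b, and for each of these stress replicate 1 was the lowest library. For the other 4, Dcx, Sox4, Eomes and Dpysl3, it was smaller in stress. Draxin was at 27.2% in controls, and Eomes at 11.4% in stress. Eomes had 2 to 7 counts per library, Draxin 3 to 25 and Igfbpl1 11 to 27. At such counts counting error is a large part of the spread, so their values are not comparable with those of well-counted members. These differences in spread were not tested.

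Stress replicate 1 was the lowest library for 7 of the 10 members and the highest for none. Among the 9 members tested it was lowest for 77.8%, where it was lowest for 25.2% of all tested genes. The same library was lowest for 16 of 20 genes of mature granule neurons. As the median over genes of log2 CPM relative to the control mean, the members stood at -0.43 in stress replicate 1 and at 0.04 and -0.12 in replicates 2 and 3. Mature granule neuron genes stood at -0.77, 0.04 and 0.17 in the same libraries, CA3 pyramidal genes at 0.81, 0.10 and 0.07, and choroid plexus genes at 4.65, 0.21 and -0.34. The part of this tissue makeup in the members' levels was not tested.

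**Figure D3:**
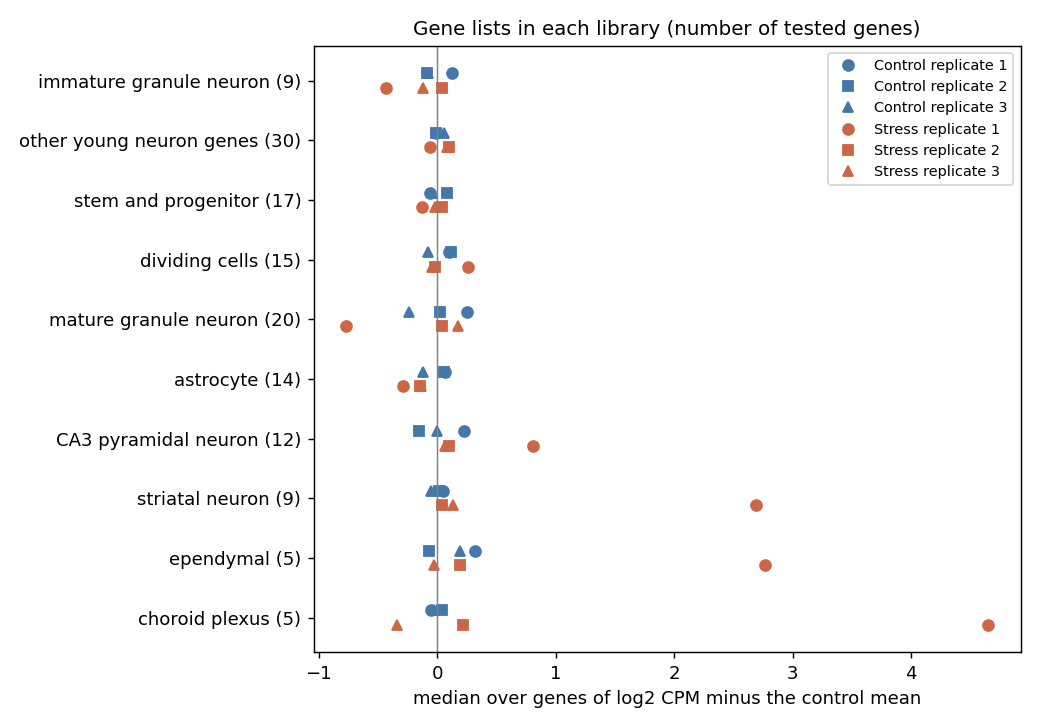
Median over the tested genes of each list of log2 CPM minus the control mean, 1 point per library, for the immature granule neuron genes and 9 other lists. Stress replicate 1 stands at -0.43 for the immature and -0.77 for the mature granule neuron genes and at 4.65 for choroid plexus genes.

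Dcx did not follow the granule neuron markers from library to library. The log2 ratio of Dcx to Prox1, in which only differences between libraries are read, was -1.76, -1.85 and -1.38 in controls and -0.71, -2.14 and -2.28 in stress. Stress replicate 1 had the highest ratio of the 6 libraries and stress replicates 2 and 3 the lowest. To Sox11 the log2 ratio was -0.94, -1.07 and -0.92 in controls and -0.79, -1.47 and -1.28 in stress, again with replicate 1 above and the others below the controls. Measured against Calb1, the calbindin gene of mature granule neurons, Dcx was at -2.05, -2.79 and -2.30 in controls and -1.78, -2.72 and -3.25 in stress. For these 3 ratios the groups overlapped.

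**Figure D4:**
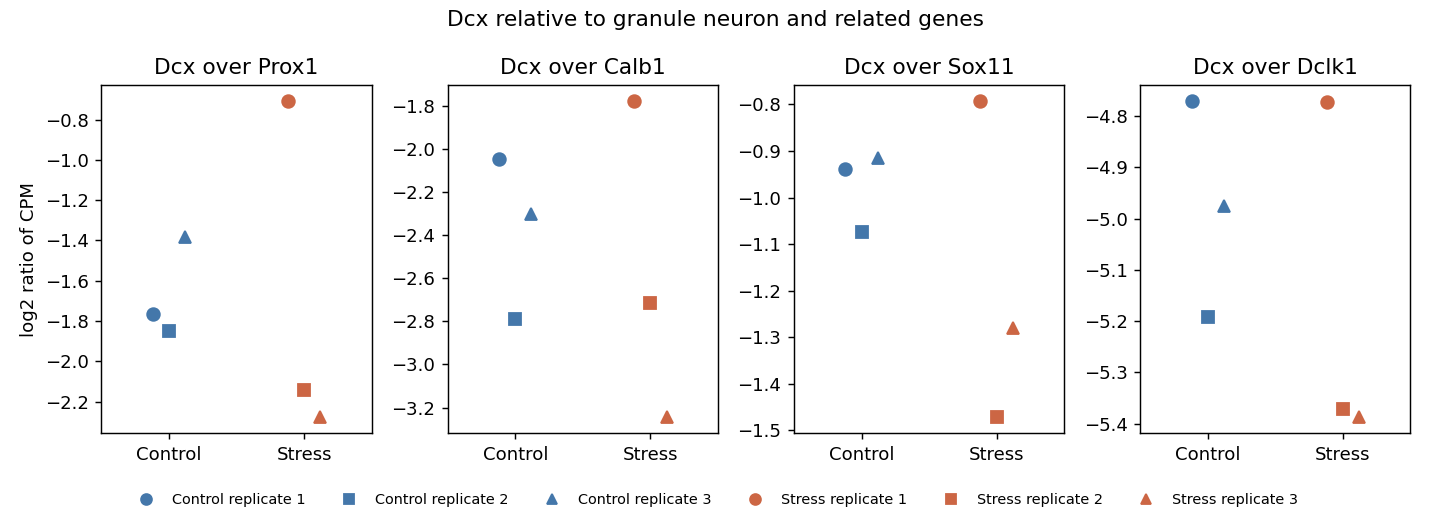
Log2 ratio of Dcx CPM to that of Prox1, Calb1, Sox11 and Dclk1 in each library. Against Prox1, stress replicate 1 stands at -0.71, above the controls, and stress replicates 2 and 3 at -2.14 and -2.28, below them.

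Relatives of the members, which share structure but not always cell type, gave 0 calls. Within the doublecortin family the 4 others are kinases or related proteins of mature as well as young neurons. Dclk1 had a log2 fold change of -0.12 (SE 0.12), while Dclk2 was at 0.23 (SE 0.08), Dclk3 at 0.26 (SE 0.09) and Dcdc2a at 0.36 (SE 0.14). For the last 3 every stress library lay above every control, as it did for 6.76% of all tested genes, and their adjusted p-values by edgeR's quasi-likelihood test ran from 0.491 to 0.540. With stress replicate 1 left out, Dclk1 was at 0.02, Dclk2 at 0.16, Dclk3 at 0.28 and Dcdc2a at 0.26. Of the neuronal stathmins, Stmn2, Stmn3 and Stmn4 were at -0.01 (SE 0.17), 0.02 (SE 0.08) and 0.06 (SE 0.08), against -0.40 for Stmn1. Without stress replicate 1, Stmn2 was at -0.24, Stmn3 at -0.05 and Stmn4 at 0.05.

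Among the other CRMP genes, Crmp1 was at 0.19 (SE 0.09), and Dpysl2, Dpysl4 and Dpysl5 were between -0.11 and -0.08. Leaving out stress replicate 1 put Crmp1 at 0.26, Dpysl2 at -0.01, Dpysl4 at 0.10 and Dpysl5 at 0.09. Of the beta tubulins, the neuronal form Tubb3 was at -0.16 (SE 0.09) and Tubb2a at 0.13 (SE 0.07), and Tubb4a, Tubb4b and Tubb5 were between -0.00 and 0.13. Without that library, Tubb3 was at -0.17, Tubb2a at 0.08, Tubb4a at -0.17, and Tubb4b and Tubb5 at -0.02. The NeuroD relatives, which mark maturing excitatory neurons, had higher values than Neurod1. Neurod2 was at 0.30 (SE 0.14) and Neurod6 at 0.62 (SE 0.25), with Neurod6 at 218 CPM in stress replicate 1 and 88.4 to 112 CPM in the other 5 libraries. In the fit of those 5, Neurod6 was at 0.20 and Neurod2 at 0.42. The third SoxC gene, Sox12, was at -0.09 (SE 0.14), and at 0.05 without that library. Neurod4, Tubb1 and Tubb6 did not pass the filter on low counts.

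**Figure D5:**
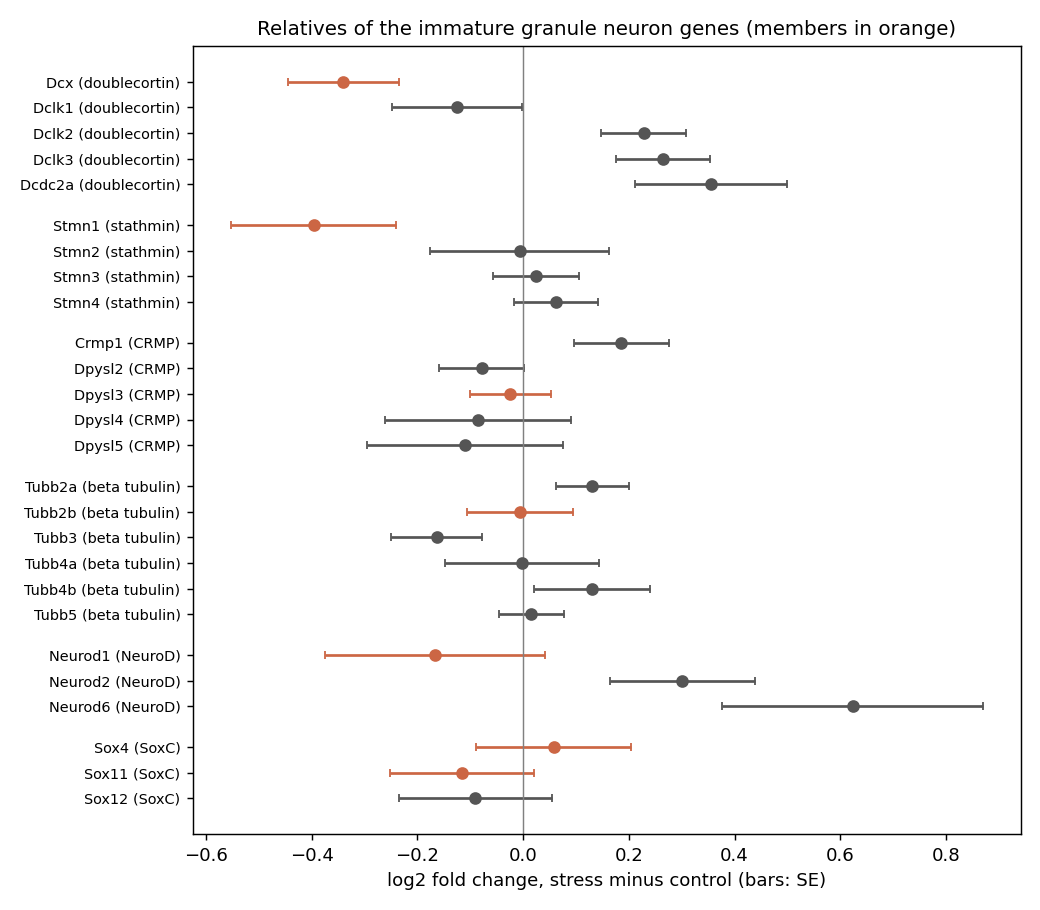
Log2 fold change of stress against control for the tested genes of 6 families, with bars of 1 SE and members in orange. Dcx at -0.34 and Stmn1 at -0.40 lie lowest, and Neurod6 at 0.62 highest, where the value without stress replicate 1 is 0.20.

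Other genes of adult-born neurons gave 0 calls among the 30 of 32 tested, with 16 positive and 14 negative estimates and a median log2 fold change of 0.02. Without stress replicate 1 the estimates were 20 positive and 10 negative, with a median of 0.10. Tmsb10, a protein that binds free actin, was at -0.46 (SE 0.17), and the progenitor factor gene Insm1 at 0.59 (SE 0.23), and without that library they were at -0.30 and 0.43. Calb2, the calretinin gene carried by young granule neurons, mossy cells and interneurons, was at 46.7, 72.2 and 79.6 CPM in controls and 8.30, 59.7 and 63.9 CPM in stress. The estimate for Calb2, -0.59 (SE 0.64) on the log2 scale, was -0.10 without stress replicate 1. In the fit without that library 1 of the 30 was called, where 0.289% of all genes tested were. This was Bcl11b, a factor of granule neuron differentiation, named after its value was seen. It was at 0.50 with an adjusted p of 0.0230 by edgeR's quasi-likelihood test. Over 6 libraries Bcl11b was at 0.305 with an adjusted p of 0.671 by the same test.

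Stem and progenitor genes gave 0 calls among the 17 of 22 tested, with a median of -0.08, which was 0.01 without stress replicate 1. The stem cell genes Sox2 and Nes were at 0.09 (SE 0.09) and 0.05 (SE 0.11), Hopx at -0.20 (SE 0.08) and the Wnt antagonist gene Frzb at 0.41 (SE 0.16). Without that library Sox2 was at 0.10, Nes at -0.0047, Hopx at -0.16 and Frzb at 0.29. Dividing-cell genes gave 0 calls among the 15 of 22 tested, with a median of 0.06, which was -0.06 without stress replicate 1. Mki67, the gene of the Ki-67 antigen of cycling cells, was at 4.12, 4.22 and 2.24 CPM in controls and 9.71, 5.82 and 4.47 CPM in stress. Its stress libraries all lay above the controls, as for 6.76% of all tested genes, and stress replicate 1 was the highest. The estimate for Mki67, a log2 fold change of 0.92 (SE 0.36), was 0.54 without stress replicate 1, and that of Top2a, a topoisomerase of dividing cells, was 0.37 (SE 0.38) and -0.18. Neither passed.

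Mature granule neuron genes gave 0 calls among 20 tested, with a median of -0.17, which was 0.11 without stress replicate 1. Calb1 was at -0.06 (SE 0.28) and Prox1 at -0.18 (SE 0.33), and both were positive without stress replicate 1, at 0.22 and 0.15. The adhesion molecule gene Icam5 was at 0.36 (SE 0.13), with an adjusted p of 0.523 by edgeR's quasi-likelihood test. Without that library it was called, at 0.51 with an adjusted p of 0.0318 by the same test. Icam5 was the 1 gene of the list called in that fit, where 0.289% of all genes tested were. The channel gene Trpc6 was at -0.38 (SE 0.26), and at -0.11 without that library.

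Other cells of the sample that could carry members of the set were followed by their own markers. Neuroblast genes of the subventricular zone gave 0 calls among 11 tested, with 6 positive and 5 negative estimates and a median of 0.08. Without stress replicate 1 the estimates were 4 positive and 7 negative, with a median of -0.06. Their summed level over 12 genes was 238 to 288 CPM in controls and 212, 287 and 283 CPM in stress. Dlx2, a marker of these cells but not of them alone, was at 0.958 to 1.47 CPM in controls and 0.831 to 1.51 CPM in stress. It had only 8 to 15 counts per library. For 2 of the 11 genes every stress library lay below every control, as it did for 7.84% of all tested genes. Tiam2, at -0.43 (SE 0.14), was 1 of these 2, and the other is not described. In controls Tiam2 was at 61.7 to 75.8 CPM. Per kilobase of merged exons the control means were 5.33 CPM for Tiam2 and 0.425 CPM for Dlx2. For 2 of the 11 every stress library lay above every control, the transcription factor genes Sp8, at 0.71 (SE 0.31), and Sp9, at 0.93 (SE 0.36). The same held for 6.76% of all tested genes. Sp8 had only 8 to 27 counts per library and Sp9 15 to 48, with stress replicate 1 the highest for both. Tiam2 was at -0.29, Sp8 at 0.50 and Sp9 at 0.52 without stress replicate 1. Genes of committed oligodendrocyte precursors gave 0 calls among 9 tested, with a median of 0.05, which was 0.03 without stress replicate 1. Their summed levels were 323 to 337 CPM in controls and 314 to 350.3 CPM in stress. Of these 9 estimates 6 were positive and 3 negative. Tcf7l2, at -0.67 (SE 0.24), had every stress library below every control, and was at -0.79 without stress replicate 1. Oligodendrocyte precursor genes had 8 positive estimates among 9 tested, and interneuron genes 6 among 10. Each list had 0 calls and a median of 0.08, which was 0.11 and 0.05 without that library. Cajal-Retzius genes gave 0 calls among 6 tested, with 2 positive and 4 negative estimates and a median of -0.12, which was -0.08 without stress replicate 1. Reln, the gene of Cajal-Retzius cells and some interneurons, was at 197 to 233 CPM in controls and at 131, 193 and 194 CPM in stress. Its stress libraries all lay below the controls, as for 7.84% of all tested genes. The estimate for Reln, -0.35 (SE 0.15) on the log2 scale, was -0.18 without stress replicate 1. Trp73, another gene of Cajal-Retzius cells, was at 0.83 (SE 0.41), and at 0.34 without that library. The part of these cells in the Dcx difference was not tested.

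The 3 tested genes nearest to Dcx in pattern were Zbtb10, Ppargc1a and Vamp1. The measure was the root mean square difference of log2 CPM, each gene centred on its mean over 6 libraries, and it was 0.049, 0.051 and 0.053. As these genes were chosen by this measure in the same libraries, fold changes close to that of Dcx follow from the choice. Ppargc1a, a coactivator gene of mitochondrial biogenesis, was at 89.2, 76.6 and 85.0 CPM in controls and 73.1, 61.8 and 63.6 CPM in stress, with a log2 fold change of -0.34 (SE 0.09). The vesicle protein gene Vamp1 was at -0.28 (SE 0.10) and Zbtb10 at -0.29 (SE 0.12). Leaving out stress replicate 1 put Ppargc1a at -0.41, Vamp1 at -0.37 and Zbtb10 at -0.34. None of the 3 passed, with adjusted p-values from 0.355 to 0.549 by edgeR's quasi-likelihood test. Of the other members, Dpysl3 was nearest to Dcx, with a difference of 0.192 and rank 2993 of 14057, and Draxin was farthest, with 0.772 and rank 13891. Genes that vary little lie near each other by this measure.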

How the data were processed

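The deposited table of each library holds raw counts by gene symbol. Per the submitters' processing notes, the tools were TopHat2 2.0.9 and HTSeq 0.6.1 beside Trimmomatic 0.33, FastQC 0.11.3 and edgeR 3.12.0, with the builds mm10 and GRCm38, and no role or order is stated. The annotation and the counting options, strand included, are not given in the sources used. HTSeq's summary rows were left out. They held 59.5% to 63.1% of listed reads as assigned to no gene and 0.211% to 0.253% as ambiguous.

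All 6 libraries were fitted in R 4.3.3 with group as the single term by edgeR 4.0.16 (filterByExpr, TMM scaling, quasi-likelihood F-test, two-sided), and p-values were Benjamini-Hochberg adjusted over the 14058 genes kept. CPM are TMM-scaled. SE and 95% intervals come from a limma 3.58.1 voom fit and are centred on the edgeR estimate. The fit was tested on simulated counts, with changes larger than that of Dcx and no library set apart like stress replicate 1. That test does not bear on changes as small as that of Dcx. Alternatives were scaling by upper quartile or relative log expression, testing without a filter or with CPM of 1 or more in 3 or more libraries, DESeq2 1.42.0, voom, the replicate number as a block, and each library left out. The chi-square per degree of freedom between libraries was 2.97 or more, above sampling noise in each pair.

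Named genes are the 10 members, 6 families of their relatives, fixed markers, up to 3 genes of smallest p from each of 14 other lists and the 3 genes nearest to Dcx. Not every gene that the rule takes is described, and genes outside it are said to be. The members and lists were chosen with earlier results of these data known. Positions and exon lengths come from GENCODE release M21 on GRCm38, where 94.4% of symbols matched 1 gene. Shared sequence was measured as exact 100-base windows over all GENCODE transcripts, on either strand.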

Additional observations from a re-analysis of the deposited data

How the results depend on the processing

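No member was called under any of the 13 alternatives. Genes called higher and lower numbered 0 and 4, against 39 and 68 with DESeq2, 0 and 1 with limma-voom, 0 and 0 with the replicate number as a block, and 0 to 11 and 0 to 30 with 1 library left out. Deviations of same-numbered libraries correlated at 0.137, -0.008 and 0.042, and those of other pairs at -0.153 to 0.122. With 3 libraries per group, these values cannot show whether the replicate number pairs libraries. The block gave Dcx -0.34 with an adjusted p of 0.348 by edgeR's quasi-likelihood test and called 0 members. The members' median of -0.17 ran from -0.27 to 0.02 with 1 library left out and was -0.19 with the block. Dcx and Stmn1 kept their sign throughout. With 1 library left out the log2 fold change took either sign for Sox11 (-0.27 to 0.0196), Sox4 (-0.0315 to 0.18), Neurod1 (-0.32 to 0.0551), Igfbpl1 (-0.52 to 0.0266), Draxin (-1.27 to 0.28), Tubb2b (-0.0752 to 0.0733) and Dpysl3 (-0.0619 to 0.0274).

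So did the log2 fold changes of C1ql2 (-0.52 to 0.19), Calb1 (-0.38 to 0.22), Dclk1 (-0.22 to 0.0156), Dlx2 (-0.42 to 0.0347), Dpysl4 (-0.25 to 0.0994), Dpysl5 (-0.23 to 0.0943), Nes (-0.00465 to 0.0941), Prox1 (-0.40 to 0.15), Sox12 (-0.17 to 0.0483), Stmn2 (-0.24 to 0.11), Stmn3 (-0.0488 to 0.0868), Top2a (-0.18 to 0.62), Tubb4a (-0.17 to 0.15), Tubb4b (-0.0176 to 0.21) and Tubb5 (-0.0152 to 0.0435). With the CPM filter Tubb2b was at 0.00023 and Tubb4a at 0.00236. Tubb4a was at 0.000366 with relative log expression scaling and 0.000327 with DESeq2. The causes were not tested. At 2 to 27 counts per library, the depth limits Eomes, Igfbpl1 and Draxin.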
